A study of Homo sapiens with 57 samples.

Results

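The transcripts described here encode 10 factors that cut, tail and terminate the RNA made by RNA polymerase II, and they were followed in messenger RNA of HCT116 cells, a human colorectal carcinoma line. They were chosen by identifier, 1 listed transcript per gene, as 10 of the 228715 transcripts in the tables, and all 10 passed the filter on low counts that left 78478 transcripts for testing. Gene symbols come with the list. The tables hold identifiers without symbols, so the pairing of identifier with symbol was not checked, and other transcripts of the same genes are not analysed here.

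Nearly all messenger RNAs end by cleavage downstream of a polyadenylation signal, followed by addition of a poly(A) tail. The cleavage and polyadenylation specificity factor binds the signal and cuts, the cleavage stimulation factor binds sequence downstream of the cut, and cleavage factor I binds upstream sites and influences which of several possible sites is used. After the cut, polymerase is slowed and dislodged: PCF11 bridges the polymerase tail and the RNA, the nuclear exonuclease XRN2 degrades the RNA still attached to polymerase, and the phosphatase PP1 with its targeting subunit PPP1R10 acts on elongation factors that include Spt5.

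The cells carried Spt5-HA-dhfr and were without trimethoprim (minusTMP), and 3 groups of 3 libraries differed in the CTR1 form, WT, TA7 or TE7, of an Avi-Spt5(1-820) fragment encoded by a pCW57 vector. Other samples of the series are labelled HCT116 Spt5degron, with (plusTMP) or without (minusTMP) trimethoprim. Whether the fusion was depleted in the libraries used here was not checked. All groups received doxycycline at 2 ug/ml for 24 h to induce the fragment, so the WT group carries the fusion, the vector and the induced fragment as well. Messenger RNA was selected with oligo-dT and sequenced. The labels do not spell out TA7 and TE7 or say whether a group is a single clone, and nothing in them states that replicates were grown separately, so each p-value reflects no more than the scatter among these 9 libraries, some or all of which could be technical. The levels of Spt5 and of markers of HCT116 are not analysed here.

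The libraries held 64364751 to 90805283 estimated reads each, and the 10 transcripts together took 0.0679% to 0.0806% of them. Each transcript had between 1189 (PCF11) and 14062 (XRN2) reads in a library, so counting error alone was at most 2.90%. WT replicate 1 stood apart, with the fewest transcripts above 0 (87229, against 95401 to 99993 in the other libraries) and the lowest TMM scaling factor (0.921, against 0.971 to 1.04). Over 19794 transcripts, WT replicate 1 and TA7 replicate 1 were also the most like TE7 of their groups (mean Spearman correlation with the TE7 libraries 0.898 and 0.921, against 0.823 to 0.884 in the other WT and TA7 libraries), and values without both are given beside the results that rest on them. Levels are in CPM, counts scaled to library size and TMM factor, which compare a transcript between libraries. They are also given in TPM, which divide by effective length and set the listed transcripts, not whole genes, beside each other.

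Upstream sequence is shown for 3 members, because XRN2 and NUDT21 were the transcripts that passed the test below and SYMPK lay in the opposite direction. Each is the 250 bases before an annotated RefSeq start (GRCh38.p14), 5′ to 3′ on the gene's strand, at chr20:21303081-21303330 (plus strand, the first of 2 entries for XRN2), chr16:56451333-56451582 (minus strand, NUDT21) and chr19:45863148-45863397 (minus strand, SYMPK). Capitals mark matches, on either strand, to 5 short promoter motifs whose letters are given with their counts after the sequences. Whether the listed transcripts begin at these starts was not checked.
XRN2: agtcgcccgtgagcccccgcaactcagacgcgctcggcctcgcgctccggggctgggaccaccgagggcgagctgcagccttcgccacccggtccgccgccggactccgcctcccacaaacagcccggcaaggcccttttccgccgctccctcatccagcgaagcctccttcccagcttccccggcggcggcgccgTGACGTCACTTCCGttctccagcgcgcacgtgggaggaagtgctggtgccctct
NUDT21: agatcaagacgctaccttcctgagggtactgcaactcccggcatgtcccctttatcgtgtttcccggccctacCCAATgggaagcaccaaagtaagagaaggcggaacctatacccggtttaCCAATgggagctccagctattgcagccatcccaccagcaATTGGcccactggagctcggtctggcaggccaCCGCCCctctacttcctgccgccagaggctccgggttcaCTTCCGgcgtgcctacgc
SYMPK: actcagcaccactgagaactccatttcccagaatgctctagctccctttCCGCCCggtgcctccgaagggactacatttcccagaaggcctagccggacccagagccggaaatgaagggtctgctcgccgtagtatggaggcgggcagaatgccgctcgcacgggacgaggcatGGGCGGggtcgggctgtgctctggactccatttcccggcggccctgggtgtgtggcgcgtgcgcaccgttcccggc

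The XRN2 window was 72.0% G and C, NUDT21 59.6% and SYMPK 64.8%, beside a median of 62.0% over windows of protein-coding genes. An ETS core (CGGAAG) was present in 8 of the 10 members' windows (all but WDR33 and SYMPK), compared with 16.5% of all 35116 RefSeq windows of this length and 20.2% of the 22199 windows of protein-coding genes. A CRE-like motif (TGACGT) was present in 5 members (CPSF3, WDR33, CSTF3, PCF11 and XRN2), compared with 7.1% of all windows and 8.0% of coding ones. In XRN2 the CRE-like match, which reads on both strands with shared letters, is followed directly by the ETS match in 1 run of capitals. The CCAAT box, spelled as it is named, occurred in 6 members, in 32.0% of all windows and in 32.7% of coding ones. A GC box (GGGCGG) occurred in 6 members, in 42.6% of all windows and in 53.7% of coding ones. A TATA-like motif (TATAAA) occurred in PPP1R10 alone among the members, in 10.7% of all windows and in 9.0% of coding ones. The motifs were chosen after the windows had been read, and a match is a description of letters, not of a bound site.

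In level per length, the set spanned 4.06 TPM (PCF11) to 55.9 TPM (XRN2) as means over the 9 libraries. XRN2 was the most abundant transcript of the set, above 97.5% of all transcripts tested, and PCF11 the least, above 76.4%. Below XRN2 came CPSF3, the endonuclease that makes the cut (47.4 TPM), SYMPK, the scaffold that holds the cleavage module together (38.8), and NUDT21, the RNA-binding subunit of cleavage factor I (37.8). PPP1R10 averaged 22.3 TPM and CSTF3, a scaffold subunit of the cleavage stimulation factor, 16.6 TPM. WDR33, the subunit that contacts the polyadenylation signal, averaged 8.67 TPM, CPSF6, the larger partner of NUDT21, 7.50 TPM, and CPSF2, the catalytically inactive relative of CPSF3, 5.60 TPM. The listed transcripts for subunits of a shared complex lay at very unequal levels. Other transcripts of these genes were not counted, so the levels of whole genes may differ from these.

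Every neighbour in that order was separated in 9 of 9 libraries except SYMPK and NUDT21, for which SYMPK was the higher in 4 of 9. Across libraries the TPM ranges of several neighbours still overlapped, namely XRN2 with CPSF3, SYMPK with NUDT21, PPP1R10 with CSTF3, WDR33 with CPSF6, CPSF6 with CPSF2 and CPSF2 with PCF11. The NUDT21 to CPSF6 ratio of TPM was 5.00 ± 0.356 in WT, 5.53 ± 0.712 in TA7 and 4.48 ± 0.271 in TE7 (SD, n = 3). The CPSF3 to CPSF2 ratio was 9.13 ± 0.959, 7.64 ± 0.728 and 8.98 ± 0.601 in the same groups. These ratios overlapped between TE7 and WT.

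**Figure D1:**
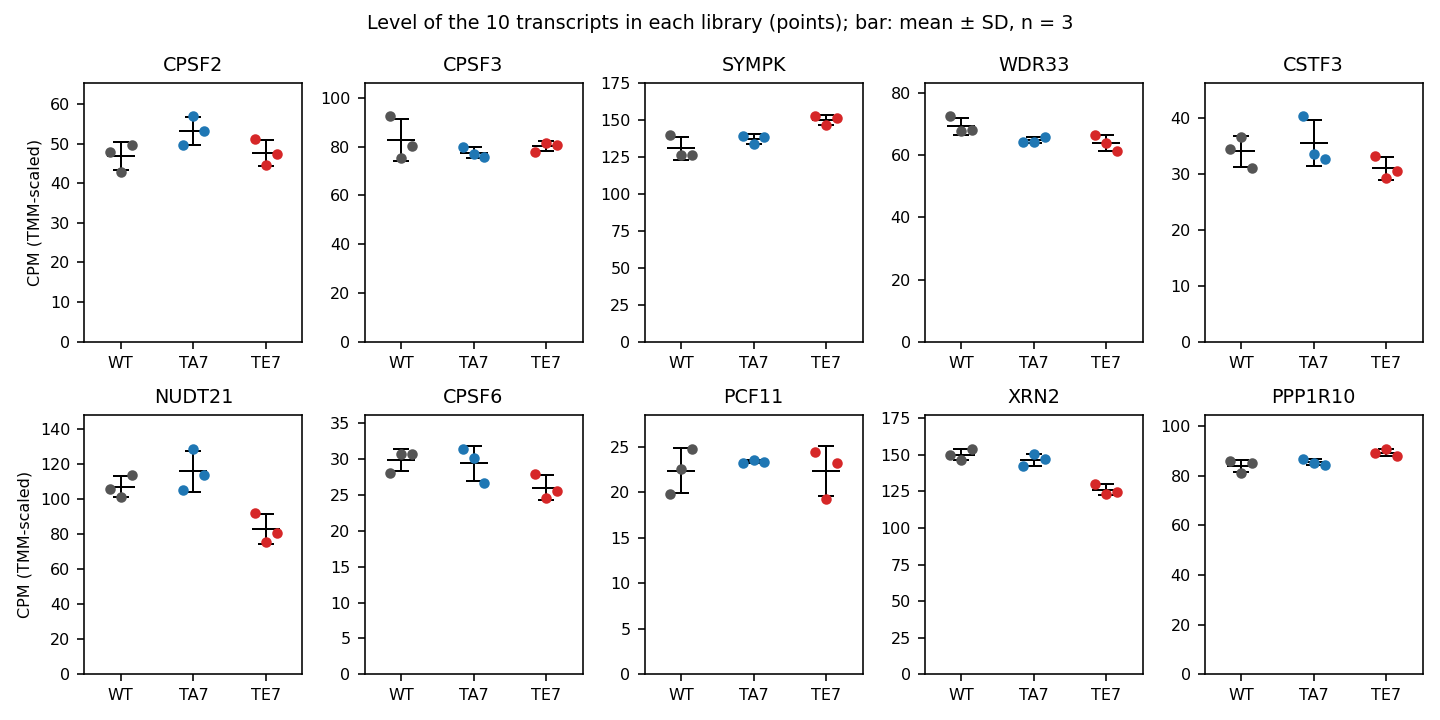
Level of the 10 transcripts in each of the 9 messenger RNA libraries (points), in TMM-scaled CPM, by group (WT, TA7, TE7), with the group mean and SD as bars (n = 3). The TE7 points of XRN2 (123.5 to 130.4 CPM) and NUDT21 (75.8 to 92.4 CPM) lie below all points of the other groups, and those of SYMPK (146.3 to 152.3 CPM) lie above them.

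The comparison of TE7 with WT asks how transcript levels differ between cells with these CTR1 forms. The transcript of the terminator exonuclease XRN2 fell 1.19-fold in TE7, and it was the only member to pass the test (the quasi-likelihood test of edgeR, with p-values adjusted by Benjamini-Hochberg over all 78478 transcripts and a threshold of 0.05). Over all transcripts tested, 9.4% passed in either direction and 4.81% passed as lower, so 1 of 10 is close to the share in either direction. Among transcripts of at least 5 CPM, where all members lie, 24.9% passed. NUDT21 and SYMPK differed from WT in opposite directions, each without library overlap and each short of the threshold. The other 7 members did not pass. An unadjusted p under 0.05 was reached by 3 members and by 25.3% of all transcripts tested.

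XRN2 (ENST00000377191, 3408 bases) was measured at 150.0, 146.2 and 154.0 CPM in WT, at 142.4, 150.5 and 147.1 in TA7, and at 130.4, 123.5 and 124.3 in TE7. All TE7 libraries lay below all libraries of the other groups, and WT and TA7 overlapped. Group means were 150.1 ± 3.88, 146.7 ± 4.05 and 126.1 ± 3.79 CPM (SD, n = 3). The log2 change of TE7 against WT was -0.25 (SE 0.0459, 95% interval -0.36 to -0.15, edgeR adjusted p = 0.0160). In TPM the transcript was at 53.3, 59.8 and 66.6 in WT, 57.3, 62.6 and 62.1 in TA7, and 48.5, 45.1 and 47.8 in TE7, again with TE7 lowest. The direction was the same in 22 of 22 alternative analyses and the call held in 16. It was lost without WT replicate 3 (edgeR adjusted p = 0.0581), without TE7 replicate 2 (0.0937) and without TE7 replicate 3 (0.0714), and also without a filter, with limma without a filter and with only the 2 groups (0.0540 to 0.0716). It held without WT and TA7 replicate 1 together (0.0190).

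NUDT21 (ENST00000300291, 4393 bases) was measured at 106.2, 101.6 and 113.7 CPM in WT, at 105.5, 128.8 and 113.8 in TA7, and at 92.4, 75.8 and 80.9 in TE7. The TE7 libraries were again the 3 lowest of the 9. Against WT the log2 difference was -0.37 (SE 0.0993, 95% interval -0.60 to -0.14, edgeR adjusted p = 0.0586), larger than that of XRN2 but with a wider error. DESeq2 called it lower (adjusted p = 0.00580), as did 5 more of the 22 alternatives. Its partner CPSF6 (ENST00000435070, 6584 bases) was at 28.1, 30.7 and 30.8 CPM in WT, 31.4, 30.2 and 26.7 in TA7, and 28.0, 24.6 and 25.6 in TE7. TE7 lay below WT without overlap in TMM-scaled CPM, and overlapped with TA7. The nearest libraries were WT replicate 1 at 28.1 and TE7 replicate 1 at 27.95, a gap within counting error (2.435% and 2.304%). Without the TMM factors, of which WT replicate 1 has the lowest (0.921), TE7 and WT overlapped for CPSF6. The log2 difference of CPSF6 from WT was -0.20 (SE 0.0857, edgeR adjusted p = 0.201). In TMM-scaled CPM NUDT21, and CPSF6 by that small gap, were lower in every TE7 library than in every WT library. Neither passed the test in this comparison, and 32.9% of all transcripts tested had TE7 and WT groups that did not overlap. In TPM, CPSF6 overlapped between TE7 (5.87 to 6.72) and WT (6.65 to 9.43), while NUDT21 did not (25.3 to 29.4 against 35.3 to 47.9).

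SYMPK (ENST00000245934, 4077 bases) went the other way. It was measured at 139.8, 126.5 and 126.1 CPM in WT, 139.3, 133.3 and 138.1 in TA7, and 152.3, 146.3 and 151.1 in TE7. The TE7 libraries were the 3 highest, while WT replicate 1 lay with TA7. The log2 difference of TE7 from WT was 0.20 (SE 0.0535, 95% interval 0.07 to 0.32, edgeR adjusted p = 0.0606). Without WT replicate 1 the edgeR adjusted p was 0.00917 and the difference 0.25, and without WT and TA7 replicate 1 together they were 0.0118 and 0.25. Leaving out WT replicate 1 thus brought SYMPK past the threshold, and 11.7% of all transcripts passed without it (11.9% without both). With all 9 libraries DESeq2 called SYMPK higher too (adjusted p = 0.00293, with 20.2% of all transcripts called). So did edgeR with library size alone (adjusted p = 0.0230, 9.82%), at least 1 CPM in 3 libraries (0.0298, 21.1%) and an effective length offset (0.0464, 10.3%). In all, 7 of the 22 alternatives called it and 15 did not. Leaving out any other single library kept SYMPK short of the threshold, with an edgeR adjusted p between 0.0837 and 0.171. In TPM, SYMPK in TE7 (38.3 to 41.8) overlapped with TA7 (40.1 to 40.5) and both lay above WT (34.8 to 37.1).

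WDR33 (ENST00000322313, 9490 bases) was at 72.5, 67.7 and 68.0 CPM in WT, 64.3, 64.4 and 65.9 in TA7, and 66.6, 63.8 and 61.3 in TE7. WT was the highest group without overlap, and TA7 and TE7 overlapped. The log2 difference from WT was -0.12 in TE7 (SE 0.0529, edgeR adjusted p = 0.210). PPP1R10 (ENST00000376511, 4511 bases) was at 85.9, 81.1 and 84.9 CPM in WT, 86.8, 85.0 and 84.4 in TA7, and 89.1, 90.7 and 87.9 in TE7. In TMM-scaled CPM the TE7 libraries of PPP1R10 were the 3 highest by a narrow margin, and the log2 difference from WT was 0.09 (SE 0.0442, edgeR adjusted p = 0.263). Without the TMM factors TE7 overlapped with both other groups. In TPM, PPP1R10 in TE7 (21.98 to 22.5) lay within WT (19.65 to 23.19) and below TA7 (22.98 to 23.63).

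The remaining members overlapped between TE7 and WT in CPM. CPSF3 (ENST00000238112, 2259 bases) averaged 82.7 ± 8.74 CPM in WT, 77.5 ± 2.295 in TA7 and 80.1 ± 2.04 in TE7 (SD, n = 3), with a log2 difference of -0.05 between TE7 and WT (edgeR adjusted p = 0.785). CPSF2 (ENST00000298875, 13003 bases) averaged 46.8 ± 3.61, 53.2 ± 3.57 and 47.7 ± 3.25 CPM in the same order of groups, with 0.03 (edgeR adjusted p = 0.901). CSTF3 (ENST00000323959, 2812 bases) averaged 34.0 ± 2.77, 35.5 ± 4.16 and 31.0 ± 2.05 CPM, with -0.13 (95% interval -0.37 to 0.11, edgeR adjusted p = 0.491). In TPM the TE7 libraries of CSTF3 (13.2 to 15.2) and of CPSF3 (44.1 to 46.3) lay just below those of WT (15.4 to 19.0 and 46.5 to 51.9). The subunits that form the cleavage module with SYMPK, CPSF2 and CPSF3, were within 0.05 of WT in the fitted log2 difference. Their 95% intervals, -0.17 to 0.22 for CPSF2 and -0.22 to 0.13 for CPSF3, leave room for changes in either direction. PCF11 (ENST00000298281, 7677 bases) averaged 22.4 ± 2.47, 23.4 ± 0.202 and 22.3 ± 2.73 CPM, with a log2 difference of -0.00 and an interval from -0.27 to 0.26, which leaves room for a change as large as that of XRN2.

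**Figure D2:**
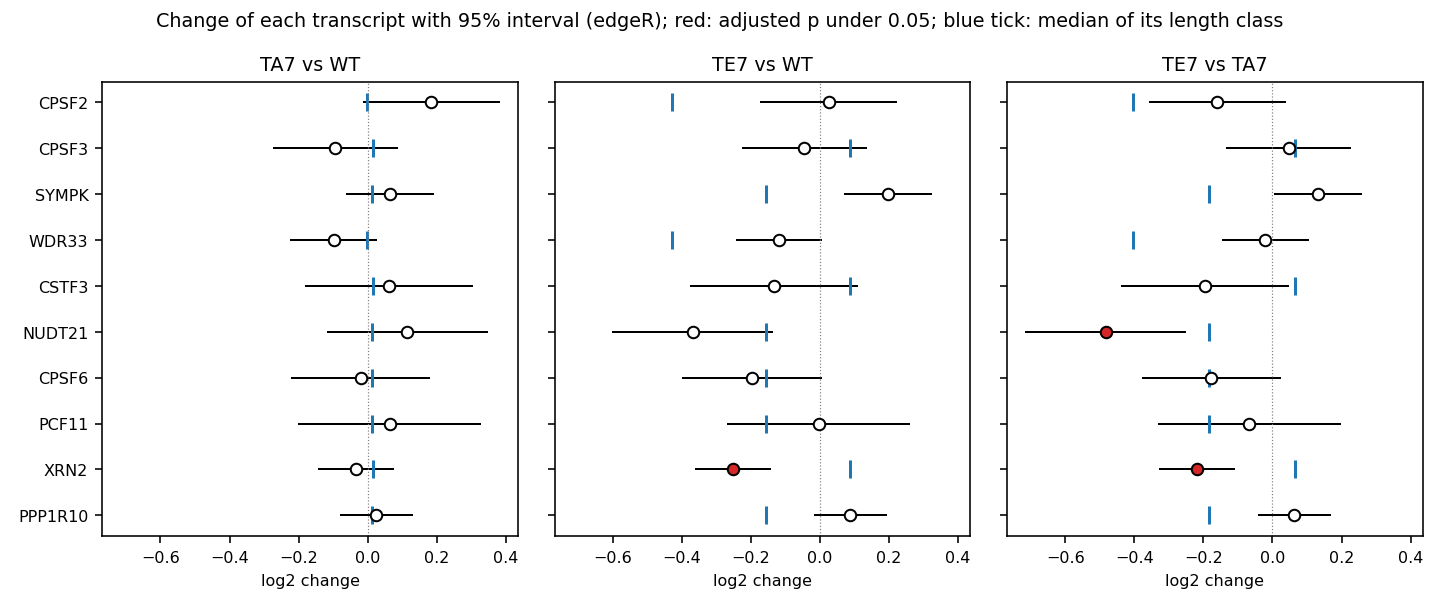
Log2 change of each transcript in the 3 comparisons, with 95% intervals from the edgeR fit, red points for an adjusted p under 0.05 and a blue tick at the median of transcripts of the same length class. XRN2 at -0.25 in TE7 against WT, and NUDT21 at -0.48 and XRN2 at -0.22 in TE7 against TA7, are the 3 red points.

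Read as a list, 6 of the 10 members had TE7 and WT libraries that did not overlap in TMM-scaled CPM (SYMPK and PPP1R10 higher, XRN2, NUDT21, CPSF6 and WDR33 lower), and 32.9% of all transcripts tested had such groups. Without the TMM factors, CPSF6 and PPP1R10 overlapped between TE7 and WT. The median log2 difference of the members was -0.08, beside -0.02 over all transcripts tested and 0.04 over the 19794 with a mean of at least 5 CPM. All members lie in that better-measured class, in which 24.9% of transcripts passed. When the model was refitted to that class alone, an analysis added after the data were seen, 39.5% of its transcripts passed, and so did 4 members: XRN2 (edgeR adjusted p = 0.00473), SYMPK (0.0146), NUDT21 (0.0164) and WDR33 (0.0301). The refit also moved the estimates, for WDR33 from -0.12 to -0.16 and for XRN2 from -0.25 to -0.29. DESeq2 called 3 members and 20.2% of all transcripts tested, and limma on log2(TPM + 1) called 2 members and 12.1%. In each of these fits the count differs by less than 1 member from what the share over all transcripts gives for 10.

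TE7 against TA7 compares these CTR1 forms with each other. NUDT21 fell 1.40-fold and XRN2 fell 1.16-fold in TE7, and they were the 2 members that passed the test. Over all transcripts tested, 3.07% passed in either direction and 1.78% passed as lower. Among transcripts of at least 5 CPM, where all members lie, 9.62% passed. A refit to that class called 2 members and 27.6% of its transcripts. DESeq2 called 2 members and 13.5% of all transcripts tested, and edgeR with at least 1 CPM in 3 libraries 2 and 9.93%. With limma on log2(TPM + 1) it was 1 member and 3.95%. TE7 takes part in this comparison and in the one with WT, so the values share the TE7 libraries.

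For NUDT21 the log2 change of TE7 against TA7 was -0.48 (SE 0.0993, 95% interval -0.71 to -0.25, edgeR adjusted p = 0.0469), with group means of 83.0 ± 8.51 CPM in TE7 and 116.0 ± 11.8 CPM in TA7 (SD, n = 3). For XRN2 it was -0.22 (SE 0.0459, 95% interval -0.32 to -0.11, edgeR adjusted p = 0.04995). Both calls lie just under the threshold. Leaving out any 1 library other than WT replicate 1 ended both calls, with an edgeR adjusted p between 0.0619 and 0.174 for NUDT21 and between 0.0647 and 0.202 for XRN2, and RLE scaling ended them too (0.0523 and 0.0600). So did a replicate block in the edgeR fit (adjusted p = 0.108 and 0.0997). Without WT replicate 1 the values were 0.0440 and 0.0275, and without WT and TA7 replicate 1 together 0.0425 and 0.0320. The SD of NUDT21 was larger in TA7 than in WT or TE7. Relative to the group mean it was 10.16% in TA7, 10.25% in TE7 and 5.67% in WT. TA7 replicate 2 stood at 128.8 CPM against 105.5 and 113.8 in the other TA7 libraries.

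Among the other members, SYMPK was higher in TE7 than in TA7 by 0.13 (SE 0.0535, edgeR adjusted p = 0.235) and PPP1R10 by 0.06 (edgeR adjusted p = 0.512), both without overlap in CPM and neither past the threshold. On the TPM scale the median of the transcripts of at least 5 CPM moves from 0.05 to -0.08, PPP1R10 and CPSF3 then have the other sign, and the difference of SYMPK is 0.0029. With library size alone that of SYMPK is 0.07, and TE7 and TA7 then overlap for both SYMPK and PPP1R10. CSTF3 (-0.20, edgeR adjusted p = 0.361), CPSF6 (-0.18, 0.313), CPSF2 (-0.16, 0.359), PCF11 (-0.07, 0.837), WDR33 (-0.02, 0.904) and CPSF3 (0.05, 0.830) overlapped between the groups. Groups did not overlap for 4 of 10 members, compared with 31.5% of all transcripts. The members' median was -0.11, beside -0.02 over all transcripts tested, and 9.62% of transcripts of at least 5 CPM passed.

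TA7 against WT asks the same of the TA7 form. None of the 10 transcripts passed the test, 0 had an unadjusted p under 0.05 with edgeR or DESeq2 (7.73% and 10.4% of all transcripts did), and limma on log2(TPM + 1) gave 1 such value (10.3%). Only 0.0612% of all transcripts tested passed, and 0.152% of those of at least 5 CPM, so 0 of 10 is at the background. XRN2 differed by -0.03 (95% interval -0.14 to 0.07, edgeR adjusted p = 1), with an interval that ends short of its change of -0.25 in TE7. PPP1R10 differed by 0.02 (-0.08 to 0.13, edgeR adjusted p = 1). Intervals were wider for NUDT21, at 0.11 (-0.11 to 0.34, adjusted p = 0.942), and for PCF11, at 0.06 (-0.20 to 0.33, adjusted p = 1).

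The member nearest to a difference between TA7 and WT was CPSF2, higher in TA7 by 0.18 (SE 0.0844, edgeR adjusted p = 0.672). Its libraries were at 48.0, 42.8 and 49.7 CPM in WT, 49.7, 56.9 and 53.1 in TA7, and 51.0, 44.6 and 47.4 in TE7, and the lowest TA7 library met the highest of WT. WDR33 had a log2 difference of -0.10 (SE 0.0529, edgeR adjusted p = 0.746), and was the only member whose groups did not overlap in CPM, compared with 14.1% of all transcripts. In TPM it overlapped (8.57 to 9.57 in WT, 8.69 to 9.17 in TA7), and SYMPK did not. CPSF3 (-0.09, adjusted p = 0.927), SYMPK (0.07, 0.926), CSTF3 (0.06, 1) and CPSF6 (-0.02, 1) differed by less than 0.1. The members' median was 0.04, beside 0.00 over all transcripts tested.

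Transcript length moved with the TE7 comparisons across the tables, and the members differ widely in length, from 2259 to 13003 bases. With a floor of 5 CPM, transcripts of 2000 up to 4000 bases had a median log2 change of 0.09 in TE7 against WT (7059 transcripts). Those from 4000 up to 8000 bases had -0.16 (4871), and those of 8000 bases or more had -0.43 (1069). In TE7 against TA7 these medians were 0.07, -0.18 and -0.40, and in TA7 against WT 0.01, 0.01 and -0.00. Set against the median of its own length class, XRN2 in TE7 against WT stood at -0.34, since its class median lay above 0. NUDT21, in a class with a median below 0, stood at -0.21, CSTF3 at -0.22, CPSF3 at -0.13 and CPSF6 at -0.04.

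The longest members were among those that lay above their class. CPSF2 stood 0.46 above the median for transcripts of 8000 bases or more, and WDR33 0.31 above it, in TE7 against WT. SYMPK stood 0.35, PPP1R10 0.25 and PCF11 0.15 above the median for 4000 up to 8000 bases. In all, 5 members lay above and 5 below their class in TE7 against WT, 6 above and 4 below in TE7 against TA7. The part of length in the members' differences was not tested.

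**Figure D3:**
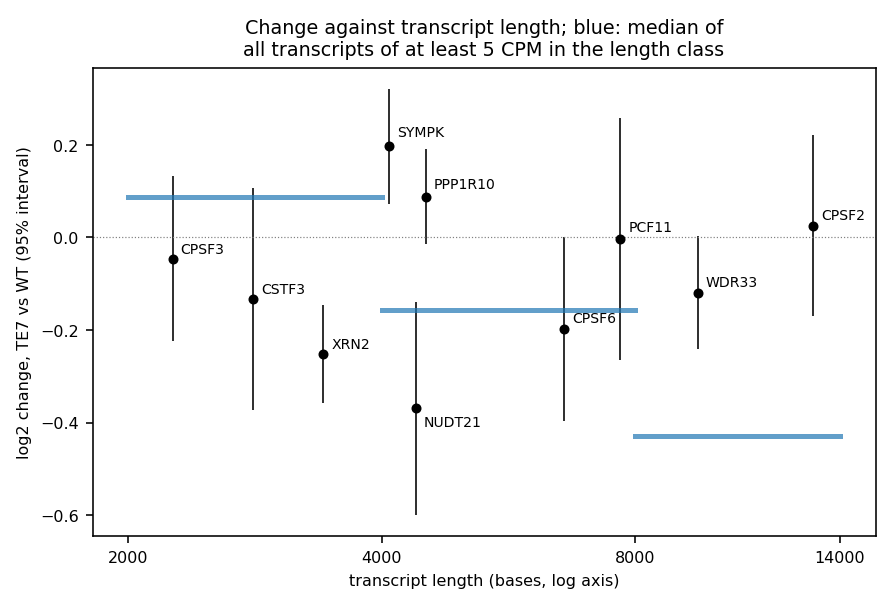
Log2 change of TE7 against WT for the 10 transcripts (points, with 95% intervals) by length in bases on a log axis, with blue lines at the median of each length class among transcripts of at least 5 CPM. CPSF2 and WDR33 lie 0.46 and 0.31 above the class median of -0.43, and XRN2 lies 0.34 below its class median of 0.09.

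Ratios of TPM within a library do not depend on library scaling. They are given as a description with no test, since XRN2 and PPP1R10 were paired with their directions known. The XRN2 to PPP1R10 ratio of TPM was 2.71, 2.85 and 2.87 in WT, 2.47, 2.65 and 2.70 in TA7, and 2.16, 2.05 and 2.16 in TE7. The 3 TE7 libraries were the lowest, with a mean of 2.12 ± 0.0597 against 2.81 ± 0.0872 in WT (SD, n = 3), and WT lay just above TA7 (2.71 against 2.70 for the nearest libraries). The XRN2 to PCF11 ratio overlapped between all groups, with means of 14.9 ± 1.64 in WT, 13.9 ± 0.275 in TA7 and 12.7 ± 1.37 in TE7. SYMPK to CPSF3, subunits of 1 module, was 0.726 ± 0.0310 in WT, 0.840 ± 0.00968 in TA7 and 0.898 ± 0.0466 in TE7, lowest in WT.

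Summed over the 10 transcripts, the level was 231.2, 249.1 and 273.8 TPM in WT, 254.7, 267.4 and 264.5 in TA7, and 225.2, 210.0 and 225.1 in TE7. Each TE7 library was below each library of the other groups on this scale. As a share of reads TE7 and WT overlapped, at 0.0679% to 0.0733% in TE7 and 0.0715% to 0.0789% in WT. XRN2, CPSF3, SYMPK and NUDT21 supply most of that sum. In bulk RNA, fewer cells with a transcript and less of it per cell cannot be told apart.

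**Figure D4:**
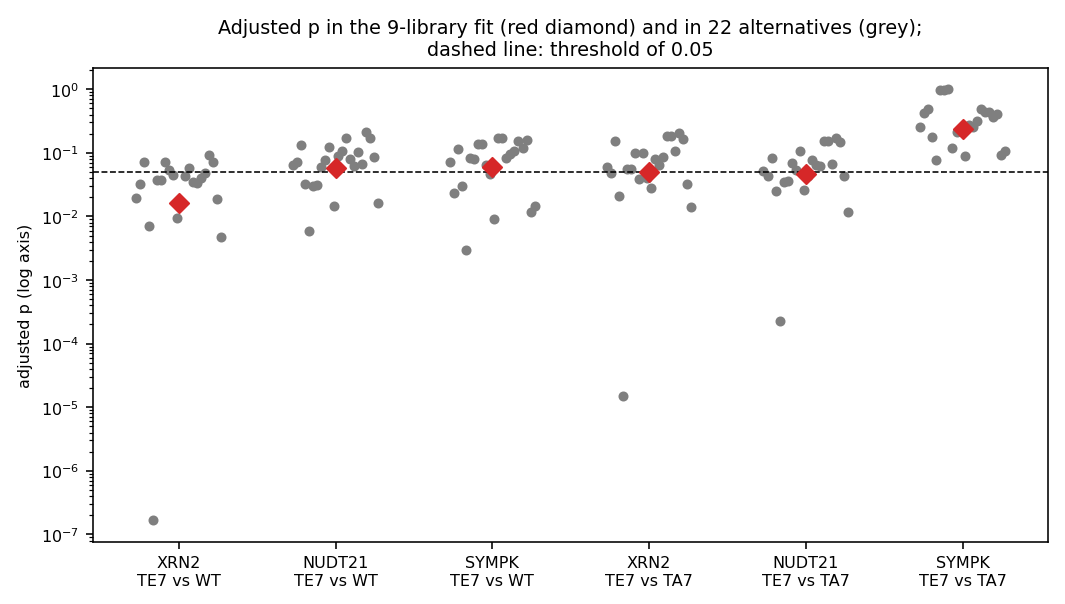
Adjusted p (log axis) of XRN2, NUDT21 and SYMPK in TE7 against WT and TE7 against TA7, with the 9-library edgeR fit as a red diamond, 22 alternative analyses as grey points and the threshold of 0.05 as a dashed line. In TE7 against WT, 16 of 22 points of XRN2 lie under the line, compared with 6 for NUDT21 and 7 for SYMPK, and in TE7 against TA7 the counts are 8, 9 and 0.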

How the data were processed

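Messenger RNA of 9 libraries was analysed, and 48 of the 57 samples of the series were not analysed here. Reads were handled with cutadapt 2.3 and quantified with Salmon 1.3.0, and the genome build named is hg19, per the submitters' processing notes. What transcript set and options were used is not given in the sources used here. Each deposited table has, per the file headers, a length, an effective length, a TPM and an estimated count for every transcript. As deposited, estimated counts carry no normalization, and reads that fit several similar transcripts are divided among them. The deposited TPM take account of effective length and sum to an equal total in every library.

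Estimated counts were rounded and fitted in R 4.3.3 with edgeR 4.0.16 (filterByExpr on group, TMM, glmQLFit and glmQLFTest, group as the only term, all 9 libraries), with Benjamini-Hochberg adjustment over 78478 transcripts and a threshold of 0.05. The SE is the log2 change divided by the square root of F. CPM use the TMM factors. Alternatives used DESeq2 1.42.0, limma 3.58.1 on log2(TPM + 1) or log2(TPM + 0.1), other scalings and filters, a replicate block, an effective length offset and fits without single libraries. The code was tested on simulated data first.

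All 10 listed members are named. Values in every library are given for members that passed the test or whose groups did not overlap, and in addition for CPSF2, chosen after its values were seen. The members and lists were chosen with earlier results of these data known. A list of other pathway genes and lists of cell type markers need a table that pairs identifiers with symbols, and were not analysed here. The search for such a table was limited to looking up the identifier of CPSF2 in a list of gene names, which did not hold it. Promoter windows were matched to RefSeq by symbol, for 10 of 10 members.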

Additional observations from a re-analysis of the deposited data

Results flagged for a closer look

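Transcripts whose difference from WT was not the same in TE7 and TA7 are given here. NUDT21 differed between the effects of the TE7 and TA7 forms, with the TE7 change minus the TA7 change at -0.48 (edgeR adjusted p = 0.0469). XRN2 did so with -0.22 (edgeR adjusted p = 0.04995). Because both forms were set against the same WT libraries, these differences are the TE7 against TA7 contrast of the report. A check of each transcript for 1 library far from the rest of its group was not applied to groups of 3.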

How the results depend on the processing

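The number of members called in TA7 against WT was 0 in all 22 alternatives. In TE7 against WT it was 1, and it became 2 with library size alone, 0 without a filter, 3 with at least 1 CPM in 3 libraries, 3 with DESeq2, 2 with limma at either pseudocount, 0 with limma without a filter, 0 with only the 2 groups, 4 with an effective length offset, 2 without WT and TA7 replicate 1 together, 4 among transcripts of at least 5 CPM (added after the data were seen), and 0 to 2 with 1 library left out. In TE7 against TA7 it was 2, and it became 0 with RLE scaling, 0 without a filter, 1 with limma at either pseudocount, 0 with limma without a filter, 1 with only the 2 groups and 0 to 2 with 1 library left out (2 only without WT replicate 1). Over all transcripts the share called moved as well. In TE7 against WT it was 9.4%, 3.06% without a filter, 21.1% with at least 1 CPM, 20.2% with DESeq2, 10.3% with the offset, 11.9% without both libraries and 39.5% at 5 CPM. It was 9.82% with library size alone, 12.1% and 11.9% with limma at pseudocounts 1 and 0.1, and 4.37% with limma without a filter. With only the 2 groups it was 6.96%, and with 1 library left out 3.71% to 11.7%. In TE7 against TA7 it was 3.07%, 2.99% with RLE and 0.787% without a filter. It was 3.95% with limma at either pseudocount, 0.948% with limma without a filter and 6.53% with only the 2 groups. With 1 library left out it was 0.354% to 5.63%, the highest without WT replicate 1. In TA7 against WT it was 0.0612%, and at most 2.79% (DESeq2). The cause was not tested. In the fit with the replicate block, 1 member was called in TE7 against WT (XRN2, edgeR adjusted p = 0.0443), 0 in TE7 against TA7 (NUDT21 0.108, XRN2 0.0997) and 0 in TA7 against WT. That fit called 6.77%, 1.4% and 0% of all transcripts in the same order of comparisons. The labels state no pairing, and the 9-library fit took the numbers as none. In their deviations from the group means, libraries of the same number correlated at -0.114 to 0.306 (5 of 9 over 0.1). Those of other numbers correlated at -0.317 to 0.143 (4 of 18 over 0.1). Whether the numbers pair the samples was not tested.

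Of 660 member values, 573 kept direction and side of the threshold, 15 gained a call, 33 lost one and 39 changed sign, none of them a called value. Those of TA7 against WT were CPSF6 with library size alone (0.0313) and without a filter (0.0005), XRN2 with library size alone (0.0210), limma (0.0233 at pseudocount 1, 0.0237 at 0.1, 0.0233 without a filter), and without WT and TA7 replicate 1 CSTF3 (-0.0214) and PCF11 (-0.0021). With 1 library left out, values ran from -0.1523 to 0.0045 for CPSF3, -0.0255 to 0.1218 for CSTF3, -0.0547 to 0.0495 for CPSF6, -0.0056 to 0.1452 for PCF11 and -0.0503 to 0.0007 for XRN2. In TE7 against WT they were CPSF2 with limma (-0.0937, -0.1087 and -0.0937 in the same order), the effective length offset (-0.0580) and at least 5 CPM (-0.0116), CPSF3 without WT and TA7 replicate 1 (0.0437) and PCF11 without a filter (0.0200). With 1 library left out, CPSF2 ran from -0.0327 to 0.0878, CPSF3 from -0.1050 to 0.0444 and PCF11 from -0.0800 to 0.1090. In TE7 against TA7 they were CPSF3 with library size alone (-0.0179) and limma (-0.0897, -0.0914, -0.0897), and PPP1R10 with library size alone (-0.0022) and limma (-0.0647, -0.0672, -0.0647). With 1 library left out, WDR33 ran from -0.0502 to 0.0104 and PCF11 from -0.1369 to 0.0318. Standard errors of 0.0442 (PPP1R10) to 0.113 (PCF11) on the log2 scale reflect the scatter among libraries, and counting error was at most 2.90%.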

Other observations

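The effective length, which Salmon estimates per library and by which TPM are divided, varied among the members relative to the listed length. It was 0.627 to 0.788 of the listed length for CPSF6 and 0.684 to 0.814 for NUDT21, the subunits of cleavage factor I, and 1.02 to 1.06 for SYMPK, where it exceeded the listed length. For PPP1R10 it was 0.998 to 1.03. With an effective length offset in the edgeR fit, CPSF6 in TE7 against WT was at -0.34 (adjusted p = 0.0357) instead of -0.20, and NUDT21 at -0.49 (adjusted p = 0.0143) instead of -0.37. PCF11 varied by 11.1% and 12.2% of its mean in WT and TE7 and by 0.863% in TA7.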
